A study of Mus musculus with 7 samples.

Results

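The genes of the 3 factors used to turn fibroblasts into cardiomyocyte-like cells (Mef2c, Gata4 and Tbx5, together MGT) and of 7 relatives and cofactors (Gata6, Mef2a, Mef2d, Tbx20, Hand2, Nkx2-5 and Myocd) were examined for binding of JUNB. Where peaks of the 4 deposited JUNB lists shared 1 bp or more they were merged into a region, and each region went to the mouse protein-coding gene whose nearest end lay within 100 kb of the median summit. These 10 genes received 11 of 12655 regions, and 7 of the 10 received at least 1, where 25.1% of 21900 protein-coding genes did. The genes were picked by their known roles, not by a threshold on the peak values. They were chosen with earlier results of these data known.

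Cells were mouse embryonic fibroblasts of the line iMGT-Myh6-eGFP-MEF, which makes MGT when given doxycycline and carries an eGFP reporter driven by Myh6, the alpha myosin heavy chain gene of heart muscle. By the titles, 2 JUNB libraries came from cells transfected with an siRNA against Chst7, a chondroitin sulfate sulfotransferase (siChst7), and 2 from cells with a control siRNA (siControl). Both groups received doxycycline at 1 μg/mL to switch on MGT and were harvested at day 1, so neither holds uninduced cells. The treatment protocol mentions siJunb, siH1f0 and siControl only, so membership of the siChst7 group rests on the sample titles and treatment labels. The titles label the replicates of each group as biological (BiolRep). Whether the line is a single clone, and whether replicates came from separate cultures, is not stated. How far the spread between libraries is technical is therefore not known. Values from the 3 IgG samples, which would give the antibody background, were not used here. Peak lists hold no expression, and the fibroblast label could not be checked against markers.

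CUT&RUN cuts DNA next to an antibody-bound protein, and a peak marks where the released fragments pile up. The siChst7 lists held 10163 and 4735 peaks and the siControl lists 6469 and 5827; read depth is unknown here beyond a label of 30 M reads for each library. Each peak carries a fold enrichment over local background and a q-value, both given by the authors' peak caller. Between 90.6% and 93.4% of the peaks of a list shared both values with another peak of that list, so folds come in coarse steps. Folds and q-values of the lists are set side by side as the authors' values for each peak; whether they overlap between groups is a description and does not measure a change in binding.

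JUNB is a subunit of AP-1, a pair of leucine zipper proteins of the Jun and Fos families that binds the letters TGAGTCA or TGACTCA and is active at enhancers of fibroblasts. GATA4, the MEF2 proteins and TBX5 are DNA-binding proteins of the heart that bind together at enhancers of muscle genes. Their own genes take part in a network in which cardiac factors switch each other on. The comparisons below ask where JUNB peaks lay near these genes at day 1 and whether the lists differed with siChst7.

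Of the 10 genes, 6 had a region present in all 4 lists: Gata4, Gata6, Mef2a, Mef2c, Mef2d and Myocd. The background is 8.32% of 21900 protein-coding genes with such a common region. Hand2 had a region in both siChst7 lists alone, and Tbx5, Tbx20 and Nkx2-5 had none in any list. Of the 11 regions, 7 were in all 4 lists (63.6%, with 30.8 to 89.1 as the 95% Clopper-Pearson interval, which covers counting error alone), 1 in 3 lists, 1 in 2 lists and 2 in a single list. The background is 22% of all regions in all 4 lists. The common count depends on how peaks are joined. With 50% reciprocal overlap, 3 of 17 member regions were in all 4 lists (at Gata6, Mef2d and Myocd), against 1917 of all 16018 regions. When summits with 100 bp on each side were joined, 3 of 17 were (at Gata6, Mef2a and Mef2c), against 1883 of 15077. The member share and the background were closer under both joins than in the main setting. The common count depends on the gene assignment too. Member genes with a common region numbered 2 with gene ends within 20 kb or gene bodies within 5 kb. They numbered 3 when genes of every biotype could own a region.

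The length of genome nearest to a gene, its own body included, averaged 186 kb for the members, with a range of 65.4 kb at Nkx2-5 to 363 kb at Mef2c, against 77.5 kb over all protein-coding genes. Per 100 kb of that length, the members had 0.592 regions in any list, against 0.649 over all genes, and 0.376 common regions, against 0.142. The density of all regions was thus slightly below the genome's and the density of common ones above it. Neither difference was tested.

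**Figure D1:**
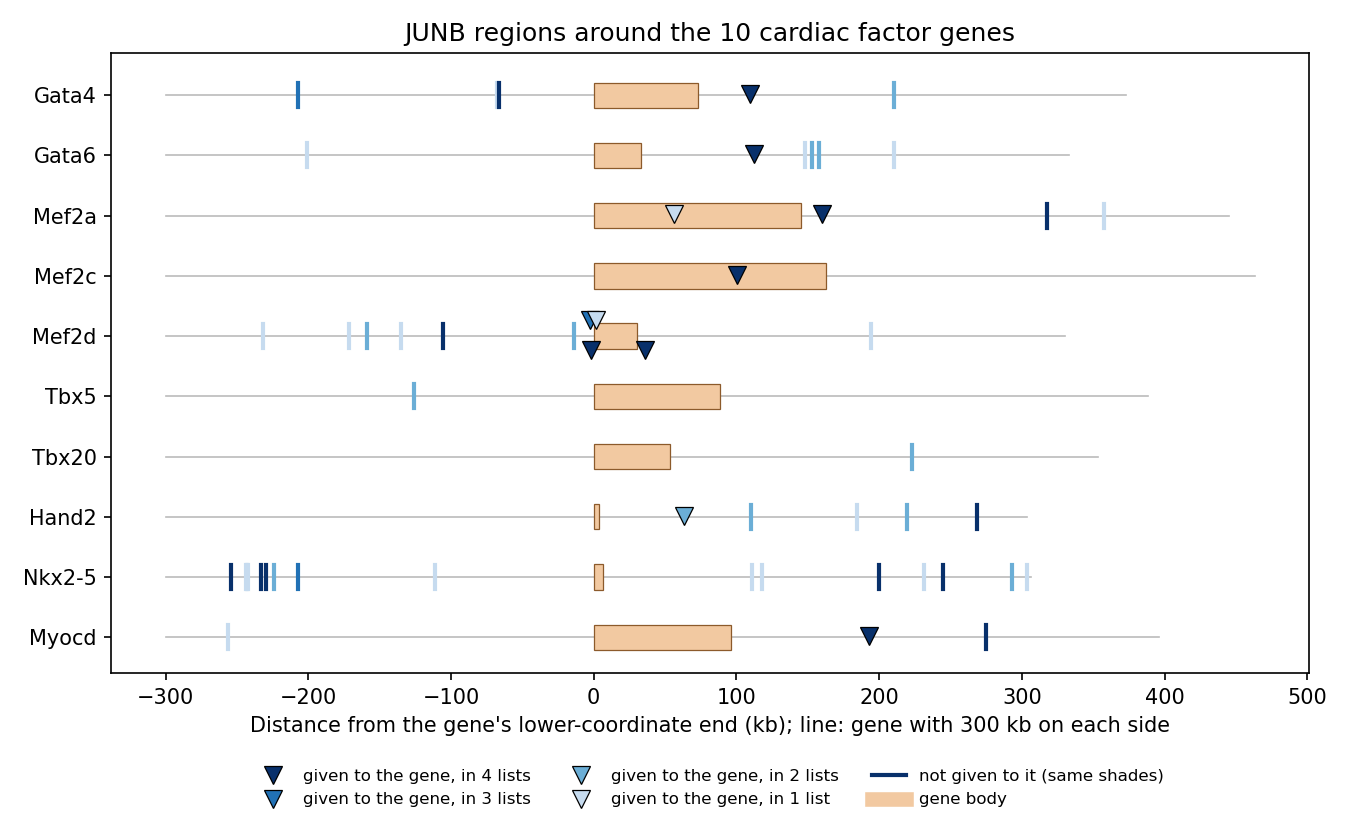
JUNB regions around the 10 genes, with distance in kb from the gene's lower-coordinate end and the gene body as a bar. Triangles are regions given to the gene and ticks are other regions within 300 kb, darker where more lists hold them; Tbx5, Tbx20 and Nkx2-5 carry no triangle, and the 4 triangles of Mef2d sit near its 2 ends (3 at one and 1 at the other, drawn above and below the bar for clarity).

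Among the 3 induced factors, Gata4 and Mef2c had 1 common region each and Tbx5 none. Gata4 encodes a zinc finger protein that binds GATA letters and is needed for heart formation. Its region (mm10 chr14:63308208-63309602) lay outside the gene, 36.9 kb from its higher-coordinate end and 64.2 kb from the next protein-coding gene, Blk, a tyrosine kinase of B cells. It overlapped Gm4151, which the RefSeq table lists as a misc_RNA, with an end 318 bp from the median summit. The peak folds were 13.3 and 7.68 in siChst7, against 7.71 and 9.32 in siControl. The groups overlapped, with siChst7 replicate 1 the highest. The peak in siControl replicate 2 was 247 bp wide and its summit lay 499 bp from that of siControl replicate 1, while the siChst7 summits were 38 bp apart. No list had a peak inside the Gata4 gene. Regions given to Ctsb, a lysosomal protease gene, lay 66.6 kb beyond its other end (in all 4 lists) and 68.2 kb beyond it (in siChst7 replicate 1).

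Mef2c encodes a MADS-box protein that drives muscle and heart genes. Its region (chr13:83604070-83604534) lay inside the gene, 62.8 kb from the nearer gene end and 30.7 kb downstream of the nearest of 3 start sites in the RefSeq promoter table. Exon positions were not used here, so the region is placed in the gene body only; it also overlapped the lncRNA gene Gm52043. The peak folds were 10.2 and 7.19 in siChst7, against 4.79 and 4.74 in siControl. The groups did not overlap, and both siControl peaks were in the lower part of their lists, at ranks 5136 of 6469 and 5284 of 5827 by q. The siChst7 peaks had ranks 1965 of 10163 and 1397 of 4735. The −log10 q-values were 14.9 and 9.68 in siChst7, against 4.18 and 3.11 in siControl, and did not overlap. The share of regions whose folds or q-values separate by group is not given here. By rank, separation by group is not rare. With all common regions ranked among themselves, 18.6% stood higher in each siChst7 list than in each siControl list, and 18.4% lower. No other region lay within 300 kb of Mef2c.

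Tbx5 encodes a T-box protein of the heart and forelimb. The nearest region to it (chr5:119670375-119670736) was 126 kb from the gene, was given to its neighbour Tbx3, another T-box gene, and was in siChst7 replicate 1 and siControl replicate 2. The nearest region in all 4 lists was 845 kb away. No list had a peak inside Tbx5, whose body spans 88.7 kb. Whether reads from the induced copies of the 3 factors fell on exons of these genes was not tested. No list had a peak inside Gata4 or Tbx5, but a signal below the threshold of the lists cannot be seen. Whether the Mef2c region covers an exon was not tested either.

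**Figure D2:**
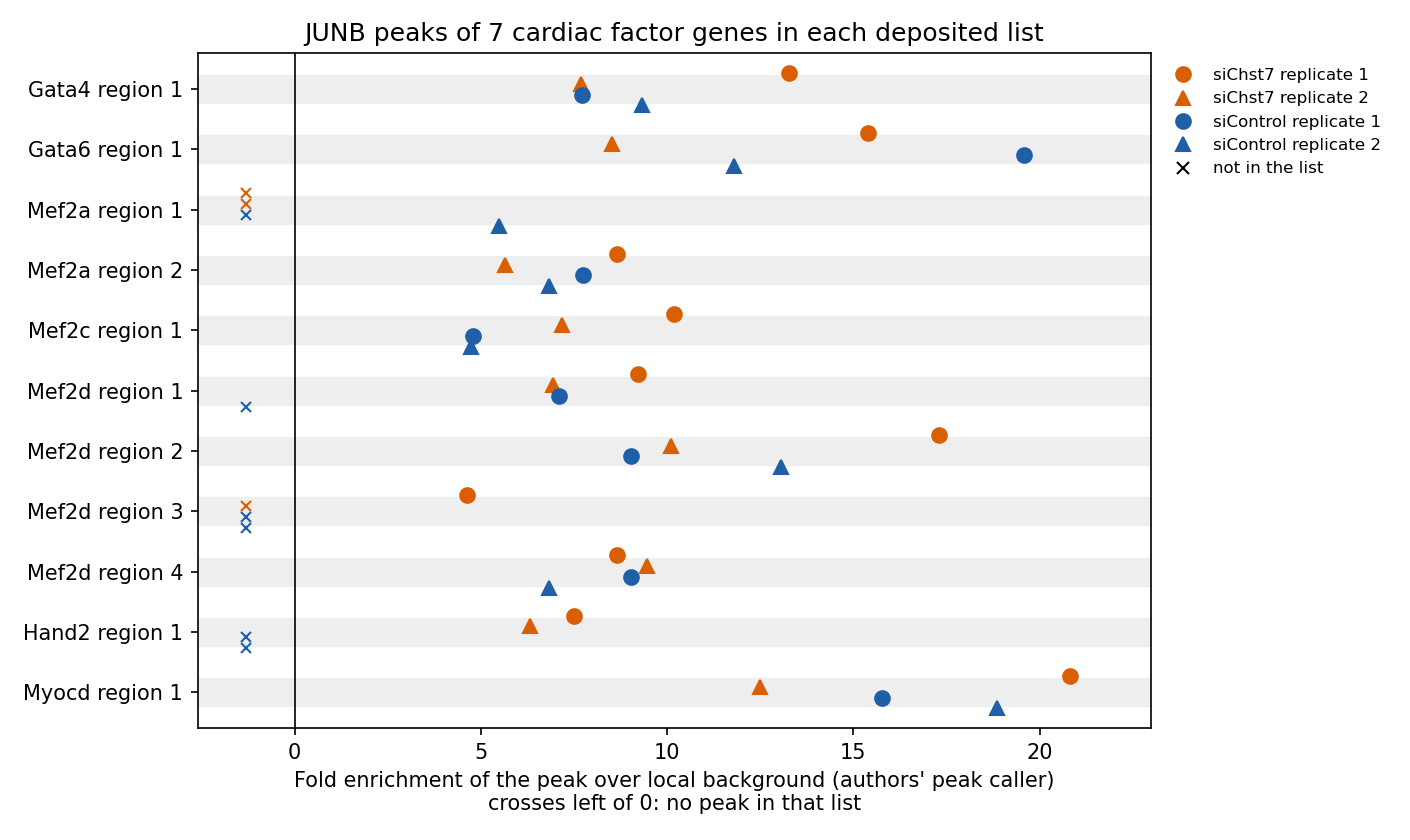
Fold enrichment (horizontal, linear, authors' values) of each peak of the 11 regions, one row per region, siChst7 in orange above siControl in blue, circles for replicate 1 and triangles for replicate 2; crosses mark lists without the region. Myocd, Gata6 and Mef2d region 2 reach the highest folds, the 2 Mef2c siControl peaks lie under 5, and Hand2 has crosses for both siControl lists.

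The relatives Gata6, Mef2a and Mef2d all had a common region, and Tbx20 had none. Gata6, a zinc finger factor of heart and endoderm, had a single region (chr18:11164285-11165771), 79.3 kb beyond the higher-coordinate end and 346 kb from the next protein-coding gene, Mib1. Its folds were 15.4 and 8.51 in siChst7, against 19.6 and 11.8 in siControl. The groups overlapped, and in each group replicate 1 was the higher. The summits in the 4 lists spanned 133 bp, the tightest of the 7 common member regions. Further out on the same side, from 115 kb on and within 300 kb, followed 2 regions in 2 lists each and 2 in a single list. They were beyond the window and belong to no gene.

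Mef2a and Mef2d encode MEF2 proteins that, in mouse, are made in many tissues. Mef2a had a common region (Mef2a region 2, chr7:67390521-67391449) 14.4 kb beyond the gene record and 18.0 kb upstream of its tabled start site. The folds were 8.65 and 5.65 in siChst7, against 7.73 and 6.83 in siControl, which overlap. These are moderate values, below the median rank of common regions in every list. A second region inside Mef2a (Mef2a region 1, chr7:67287363-67287593) was in siControl replicate 2 alone, with a fold of 5.48. The nearest other gene was Lysmd4, at 59.0 kb against 56.3 kb for Mef2a, so its owner was close to a tie.

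Mef2d had the most regions of any member, 4 in the 76.0 kb nearest to it, or 5.26 per 100 kb. Mef2d region 1 (chr3:88138164-88139302) and region 2 (chr3:88139721-88141339) lay 3.37 kb and 2.07 kb upstream of the tabled start site. Region 3 (chr3:88143019-88143296) lay 907 bp downstream of it, inside the gene, and region 4 (chr3:88177011-88178136) 5.58 kb beyond the other end. The 4 member regions nearest to a gene end were all at Mef2d. A further region, 13.7 kb from Mef2d in siChst7 replicate 1 and siControl replicate 2, went to the neighbour Iqgap3.

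Region 2 of Mef2d was the strongest of the 4, with folds of 17.3 and 10.1 in siChst7, against 9.02 and 13.0 in siControl. The groups overlapped. The siChst7 summits were 12 bp apart and the siControl summits 269 bp apart, with 536 bp across all 4 lists. Region 1 had folds of 9.23 and 6.94 in siChst7 and 7.09 in siControl replicate 1, and was not in the list of siControl replicate 2. Region 3 was in siChst7 replicate 1 alone, with a fold of 4.61. Region 4 had 8.65 and 9.46 in siChst7, against 9.02 and 6.83 in siControl, which overlap.

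Sequences are shown for the promoter windows that these regions flank or cover (RefSeq, GRCm38.p6, the assembly of mm10; 250 bases before the start site in lower case and the first 50 transcribed bases in capitals). The Mef2d window (chr3:88142122-88142421, plus strand) lies in the gap between regions 2 and 3. The window of the lncRNA gene 1700113A16Rik (chr3:88177736-88178035, minus strand) lies wholly within Mef2d region 4, and its gene end is 119 bp from the median summit. It is the one promoter window of the table that a member region overlapped.
Mef2d: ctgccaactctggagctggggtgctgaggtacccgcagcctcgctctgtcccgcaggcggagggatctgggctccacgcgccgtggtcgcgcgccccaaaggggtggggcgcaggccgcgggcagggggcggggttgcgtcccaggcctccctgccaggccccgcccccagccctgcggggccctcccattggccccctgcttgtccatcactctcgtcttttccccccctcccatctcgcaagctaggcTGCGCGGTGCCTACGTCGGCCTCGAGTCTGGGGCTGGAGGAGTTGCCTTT
1700113A16Rik: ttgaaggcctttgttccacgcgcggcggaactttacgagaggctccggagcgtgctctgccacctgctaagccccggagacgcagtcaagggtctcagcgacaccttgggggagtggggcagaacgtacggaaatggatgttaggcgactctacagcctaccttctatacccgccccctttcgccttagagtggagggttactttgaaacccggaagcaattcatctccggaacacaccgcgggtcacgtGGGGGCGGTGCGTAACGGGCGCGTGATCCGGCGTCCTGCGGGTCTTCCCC
Neither window holds TGAGTCA or TGACTCA, which are reverse complements of each other, so that reading 1 strand covers both. The Mef2d window is 72.0% G and C with 24 CpG pairs, and the lncRNA window 61.3% with 28. Of the 10 members, 6 matched the table with 8 windows, and 0 of these 8 hold the letters, against 5.20% of 32851 windows in the table. Among the 289 windows that any common region overlapped, 61 (21.1%) hold them. Sequences of the peaks themselves were not used here.

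Tbx20, a T-box gene of the heart, had no region: the nearest (chr9:24943660-24944384) was 170 kb away, in siChst7 replicate 1 and siControl replicate 2, and the nearest common one 470 kb away.

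The cofactor genes differed from one another. Myocd, whose product is a coactivator of serum response factor in heart and smooth muscle, had the region with the best mean within-list rank of the 11 (chr11:65365446-65367056), 96.2 kb beyond its higher-coordinate end. Its folds were 20.8 and 12.5 in siChst7, against 15.8 and 18.9 in siControl, which overlap. The −log10 q-values were 43.5 and 19.4 in siChst7, against 26.7 and 35.2 in siControl, and also overlapped. It stood at ranks 259, 388, 349 and 145 by q in the lists of siChst7 replicates 1 and 2 and siControl replicates 1 and 2. In siControl replicate 1 the Gata6 region was ahead of it, at rank 166. The region is close to the limit of the 100 kb window, though the next protein-coding gene, Arhgap44, was 203 kb away. A further common region, 179 kb from Myocd, lay beyond the window and belongs to no gene.

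Hand2 encodes a basic helix-loop-helix factor of the right ventricle and outflow tract. Its region (chr8:57383890-57384131), 242 bp wide, lay 59.5 kb beyond the gene; the next protein-coding gene, Scrg1, was 71.9 kb away, and the lncRNA gene Gm34099 was nearer, at 19.1 kb. It had folds of 7.50 and 6.31 in siChst7, with −log10 q-values of 8.41 and 5.49, and neither siControl list held it. The 2 siChst7 summits were 66 bp apart. Against the regions found in both siChst7 lists and neither siControl list, whose median folds were 6.35 and 5.68 in siChst7 replicates 1 and 2, the Hand2 peak was above the middle in both. A siControl signal below the threshold of those lists cannot be seen in peak lists.

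Nkx2-5, a homeobox gene of early heart progenitors, had no region within 100 kb. The nearest (chr17:26949690-26949934) was 105 kb away in siChst7 replicate 1 alone, and the nearest common one 194 kb away. The genes around it were not free of peaks: between 207 and 254 kb on its lower-coordinate side lay 8 regions given to Ergic1, 3 of them common.

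Between the groups, the member genes had similar numbers of regions. The siChst7 lists held 10 and 9 member regions, against 8 and 8 in the siControl lists (9.5 ± 0.707 and 8 ± 0, SD, n = 2 each). The lists held 10055 and 4612 regions in all in siChst7, against 6331 and 5658 in siControl, so the shortest list held 9 of the 11. For single genes the number of regions was 1 in every library for Gata4, Gata6, Mef2c and Myocd. Mef2d had 4 and 3 regions in siChst7, against 3 and 2 in siControl (two-sided exact permutation p = 0.667). Mef2a had 1 and 1, against 1 and 2 (exact permutation p = 1). Hand2 had 1 and 1, against 0 and 0 (exact permutation p = 0.333, the smallest that 2 libraries against 2 can give). After Benjamini-Hochberg adjustment over the 7 genes with a region, each adjusted exact permutation p was 1.

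Hand2 was thus the one member with a group-only region, 1 of 11 (9.09%, exact interval 0.230 to 41.3), and no member region was in both siControl lists alone. The background is 3.88% of all regions in both siChst7 lists only and 1.6% in both siControl lists only. Of genes with any region, 5.47% had more regions in each siChst7 list than in each siControl list, as Hand2 did, and 2.02% had fewer in each, as no member did. The Hand2 region is given to no member when genes must lie within 20 kb or when genes of every biotype may own a region, in which case it goes to Gm34099. It ranked 4114 in siChst7 replicate 1, outside the best 3000 peaks. Without siChst7 replicate 2, a Mef2d region joined the Hand2 region and the count was 2 of 11, against 4204 of all 12274 regions. Without siControl replicate 1, a Mef2d region joined it too and the count was 2 of 11, against 953 of 11685. In both settings 1 group had 1 library left.

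The Mef2c region changed class when the lists were made equal. With lists shortened to the length of the shortest by q or by fold, or to folds of at least 5, neither siControl list held it and both siChst7 lists did, so that siChst7-only member regions were those of Hand2 and Mef2c. Each time these were 2 of 10 member regions. Of all regions, 331 of 8128 were siChst7-only at equal length by q, 368 of 8315 by fold and 473 of 10540 at folds of at least 5. With the best 3000 peaks of each list, the Mef2c region and a Mef2d region were siChst7-only and a Mef2a region was siControl-only. These were 2 and 1 of 9 member regions, against 223 and 199 of all 5086 regions. To put the lists on the same footing in another way, the 2785 common regions were ranked among themselves by q in each list. The Mef2c region stood at percentiles of 42.8 and 53.9 in siChst7, against 5.96 and 3.25 in siControl, where 100 is best. Its mean difference was 43.8 percentage points (48.4 ± 7.88 in siChst7 and 4.61 ± 1.92 in siControl, SD, n = 2 each). Of the 2785 common regions, 41 had a larger difference in that direction, and 18.6% ranked higher in each siChst7 list than in each siControl list. The exact permutation test of 2 libraries against 2 cannot give a p below 0.333, and the region was singled out after its values were seen, so the difference is a description. Ranked by fold the difference was 38.7 points, and 106 regions had a larger one.

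**Figure D3:**
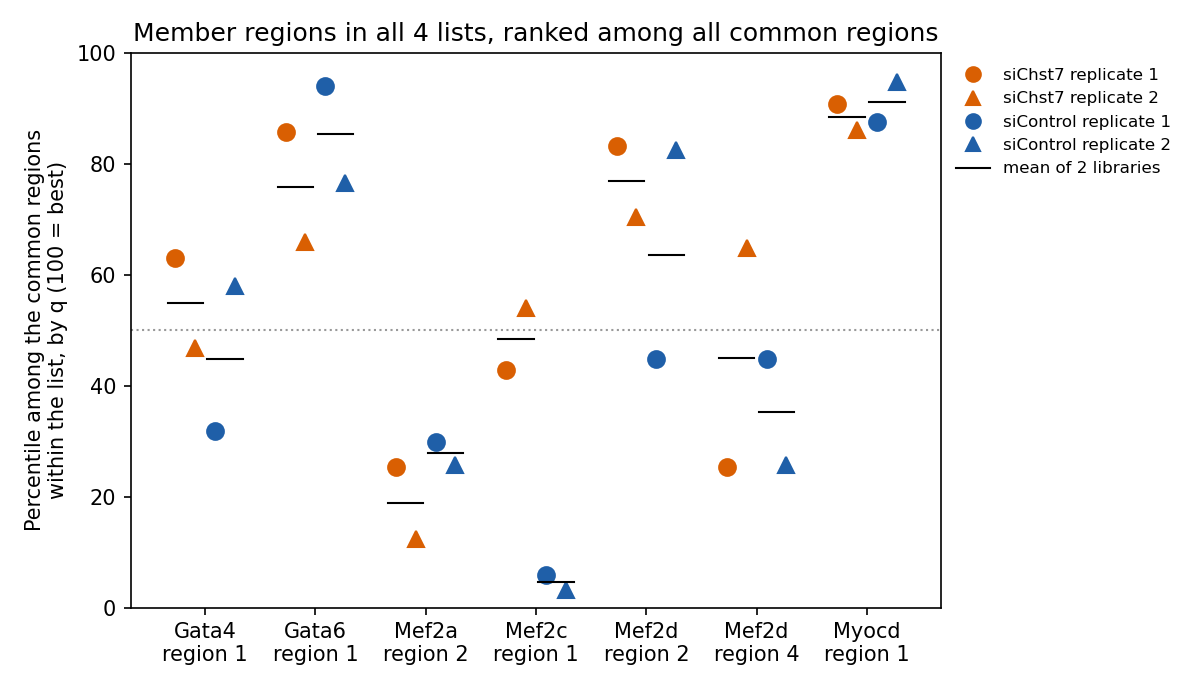
Percentile of the 7 common member regions among the 2785 common regions of each list (vertical, 100 is best), siChst7 in orange left of siControl in blue, with bars for the mean of 2 libraries. The Mef2c points separate by group, at 42.8 and 53.9 against 5.96 and 3.25, and Myocd lies at 86.1 or above in every list.

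For the other 6 common member regions the differences were smaller. Mef2d region 2 had 76.8 ± 9.14 in siChst7 and 63.6 ± 26.6 in siControl (SD, n = 2 each), and Gata4 54.9 ± 11.4 and 44.9 ± 18.5. Mef2d region 4 had 45.1 ± 28.0 and 35.3 ± 13.5. In these 3 regions the groups overlapped. Gata6 stood at percentiles of 85.8 and 66.0 in siChst7, against 94.0 and 76.6 in siControl, which also overlap. Myocd had 88.4 ± 3.25 in siChst7 and 91.2 ± 5.15 in siControl, with overlap too. The Mef2a region was lower in each siChst7 list (25.3 and 12.4) than in each siControl list (29.9 and 25.7), as were 18.4% of the common regions.

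**Figure D4:**
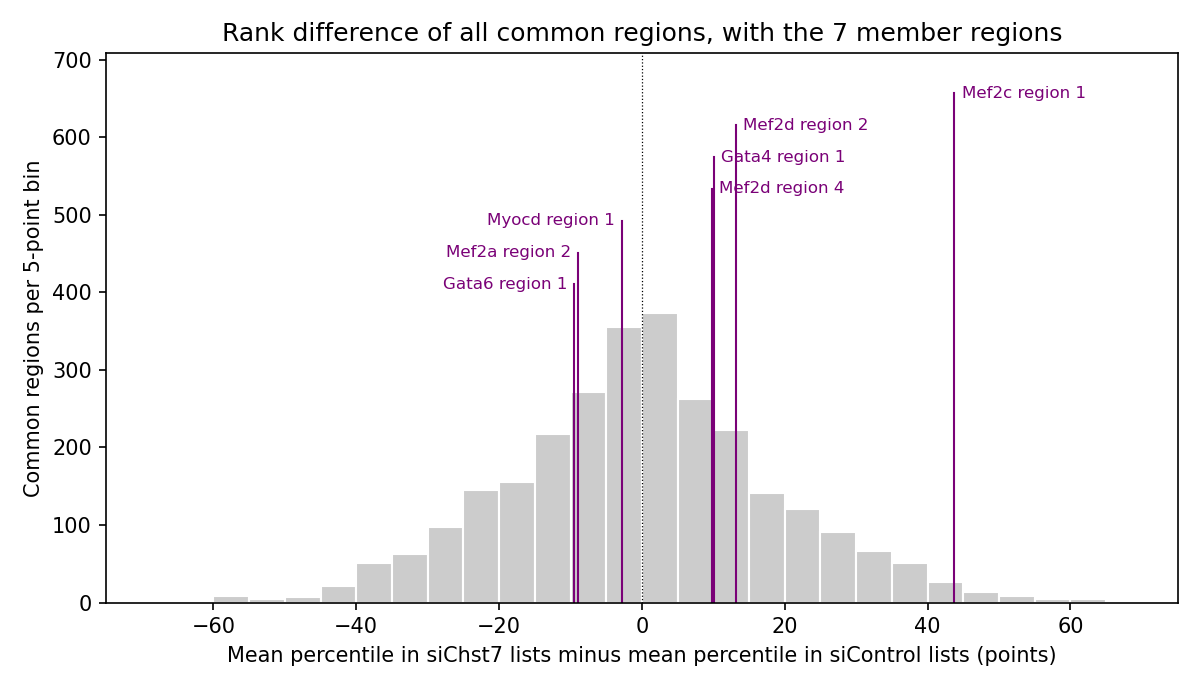
Number of common regions (vertical, 5-point bins) by mean percentile in siChst7 minus mean percentile in siControl (horizontal, percentage points), with the 7 member regions as lines. Mef2c lies in the right tail at 43.8 points, and the other 6 lie between −9.47 and 13.2, within the bulk of the distribution.

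Distances and widths of the common member regions are given as a description. The members averaged 186 kb of nearest genome, against 77.5 kb over all protein-coding genes, and distances were not adjusted for this. The median distance to the gene end was 36.9 kb for the 7 regions, against 14.8 kb for the 2411 common regions with a gene, and 2 of the 7 lay within 10 kb, against 39.2% of the 2411. The Mef2c region was the only one inside a protein-coding gene, against 51.0% of the 2785 common regions. Widths of the 7 common member regions ran from 465 bp at Mef2c to 1619 bp at Mef2d region 2. Their median was 1395 bp, against 925 bp for all common regions. The summits of the 4 lists spanned a median of 400 bp in member regions, against 209 bp in all common regions. None of these differences was tested.

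Further gene lists are given as a description, with no test against the members. Over all protein-coding genes, 25.1% had a region in any list and 8.32% a common one. Of 25 other cardiac transcription factor genes, 9 had a region in any list and 3 a common one (12.0%), namely Mrtfa, Nfatc1 and Zfpm1. This list had 0.825 regions in any list per 100 kb, against 0.592 for the members and 0.649 over all genes. Mrtfa, a relative of myocardin that senses actin, had a region inside the gene (chr15:81158824-81159453) with folds of 15.1 and 9.65 in siChst7, against 16.7 and 9.30 in siControl. Nfatc1, a calcineurin-regulated factor of heart valves, had 3 common regions, the best of them inside the gene with folds of 14.4 and 9.33, against 10.8 and 8.64. Zfpm1, a GATA cofactor, had one 4.95 kb from its end with 10.2 and 9.42, against 7.09 and 6.83. The factors Isl1, Hand1, Srf, Tbx1, Tbx2, Tbx18 and Gata5 had no region. Of the 30 regions of this list, 1 was siChst7-only, at Meis2, and 0 were siControl-only, against 3.88% and 1.6% of all regions.

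Among 15 genes known to help or hinder cardiac reprogramming, 8 had a region (25.1% of all protein-coding genes did) and 2 a common one (13.3%, against 8.32%). These were Snai1, a repressor of epithelial genes, and Zfp281, a zinc finger factor with 3 common regions, the best with folds of 8.14 and 8.83 in siChst7, against 11.0 and 9.94 in siControl. Of the 26 regions of this list, 1 was siChst7-only, at Kmt2a, and 1 siControl-only, at Notch1, against 3.88% and 1.6% of all regions. The list had 1.97 regions per 100 kb. Of 10 fibroblast transcription factor genes, 7 had a region and 3 a common one, against 25.1% and 8.32% of all protein-coding genes. The 3 were Snai1, Twist2 and Zeb2. Of the 16 regions of these genes, 1 was siChst7-only, at Zeb2, and 2 siControl-only, at Meox1 and Tcf21, with the same shares of all regions as background. These genes had 0.934 regions per 100 kb.

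By its count in each list, 1 region in each of the 4, Mef2c and Gata4 shared their pattern with 570 other genes. Those with the most similar length of nearest genome were Dnah5, Gpr158 and Gpc3 for Mef2c and Lamp2, Tmprss11f and Hephl1 for Gata4. Tbx5 shared its absence with 16401 genes.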

How the data were processed

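JUNB CUT&RUN peaks were analysed for 4 of 7 samples, 2 siChst7 and 2 siControl libraries. Bowtie2, MACS3 and the build mm10 are named in the submitters' processing notes; versions, settings and any control library are not given in the sources used here. For each peak the deposited lists give its bounds and summit, a fold enrichment (a ratio computed by the authors' peak caller) and a −log10 q-value, and the lowest deposited −log10 q was between 2.00 and 2.02. Lists were matched to libraries by the peak names.

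Peaks overlapping by at least 1 bp were joined across lists. Coordinates are 1-based. Genes came from a RefSeq table of GRCm38.p6, with 21900 protein-coding genes and no strand; start sites came from a promoter table. Where a list had a region, its best peak by q gave the values. Presence in a list is the readout, read depth is unknown and intervals cover counting error only. Region counts of a gene were tested by permuting the 4 libraries exactly, two-sided. Lists, members and tests were chosen with earlier results of these data known; all 10 members are named, with regions in at least 2 lists by position and values; the positions of 2 regions in 1 list are given beside that rule. Of each further list, up to 4 genes with the best-ranked common regions are named, and other names were added after their values were seen. Ranks among common regions, 3000-peak lists and fold-ranked equal lists were added after seeing the data. The joining and assignment were tested on simulated lists. Tables were computed with pandas 2.3.3 and NumPy 2.4.6, intervals with SciPy 1.17.1 and figures with Matplotlib 3.10.9, in Python 3.11.15.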

Additional observations from a re-analysis of the deposited data

How the results depend on the processing

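No alternative reversed the sign of the difference in region count of Hand2, Mef2a or Mef2d, though some gave 0 for Hand2 and Mef2a. The other members had a difference of 0, which has no sign to reverse. The Mef2c difference was 1 with folds of at least 5, equal list length by q or by fold, and the best 3000 peaks. Member regions in all 4 lists numbered 7. They were 3 with 50% reciprocal overlap, summit windows, gene ends within 20 kb or genes of every biotype, 2 with gene bodies within 5 kb and 4 with the best 3000 peaks, and 7 or 8 when 1 library was left out. Member genes with a common region numbered 6; they were 3 with reciprocal overlap, summit windows or every biotype and 2 with 20 kb or gene bodies. Regions only in siChst7, 1 as reported, were 2 with summit windows, folds of at least 5, equal list length by q or by fold, and the best 3000 peaks, 0 with 20 kb, gene bodies or every biotype, and 1 to 2 without 1 library. Regions only in siControl, 0 as reported, were 1 with summit windows and the best 3000 peaks, and 0 to 1 without 1 library. The background moved too. Over the settings, all common regions ran from 1397 to 3688, siChst7-only regions from 223 to 4204 and siControl-only regions from 199 to 1274. Member regions in any list ran from 5 to 17. The member counts alone therefore do not show a change particular to the members. The siChst7 minus siControl difference of 1.5 regions per library was 2 with folds of at least 5 and equal lengths by q or fold, 1 with 20 kb or the best 3000 peaks, 0.5 with gene bodies or every biotype, and 1 to 2 without 1 library. Narrower windows give fewer regions to any gene by construction. With every biotype, a gene that is not protein-coding was nearer to the common regions of Gata4, Mef2c and Myocd and to Mef2d region 4. This also held for the Hand2 region. The siControl folds of the Mef2c region, 4.79 and 4.74, fall below the threshold of 5. For the other moves the cause was not tested.

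With the replicate number as a block the difference was 1.5 and no gene's exact sign-flip p could fall below 0.5. The numbers share no stated batch. Deviations of same-numbered libraries from their group means correlated at −0.03 over 12655 regions, with 2 pairs. This value rests on presence in a list, and 46.7% of regions were in a single list. It cannot show whether same-numbered libraries shared a batch. The IgG libraries were not analysed and exact peak sequences were not read, so background and motifs within peaks are outside these results.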
